A study of Homo sapiens with 38 samples.

Results

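The vascular endothelial growth factor (VEGF) and platelet-derived growth factor (PDGF) ligands and their receptor tyrosine kinases were followed through SH-SY5Y cells, an established neuroblastoma line that takes on neuronal features when treated with retinoic acid. The 10 genes were chosen by symbol: the VEGF receptors FLT1 and KDR, the ligands VEGFA, VEGFB and VEGFC, the PDGF receptors PDGFRA and PDGFRB, and the ligands PDGFA, PDGFB and PDGFC. Of these, 9 were among the 15378 genes of the main experiment, where VEGFC was not listed. In the heterozygote experiment 6 were among 14820 genes, and KDR, VEGFC, PDGFA and PDGFB were not listed. Every listed gene passed the filter on low values.

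Polyadenylated RNA was sequenced from 38 libraries, each with a total of between 16108393 and 19249796 normalized counts. The main experiment held 10 groups of 3 libraries. Wild-type cells, p53-knockout cells, and cells with a double knockout of p53 and the deubiquitinase USP7 or of p53 and the corepressor BCOR were each sequenced undifferentiated and neural, meaning after 10 days in medium with 10 µM retinoic acid. Wild-type neural cells were also sequenced after DMSO (vehicle) or FT671, an inhibitor of USP7. The labels read here give no dose or duration for FT671. In the heterozygote experiment, cells heterozygous for USP7 and their wild-type controls were sequenced in the same states, with 2 libraries in each of 4 groups. Both double knockouts and the p53-knockout cells they were compared with lacked p53, while the FT671, vehicle and heterozygous cells carried no p53 deletion by their labels. The labels do not say whether a line is 1 clone or whether the libraries of a group came from separate cultures, so p-values measure the spread between these libraries.

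VEGF-A and VEGF-B are secreted ligands, and their receptors FLT1 (VEGFR1) and KDR (VEGFR2) are best known from blood vessel endothelium, where KDR carries most of the growth signal and FLT1 holds much of the ligand without strong signalling. PDGF-A, PDGF-B and PDGF-C act on PDGFRα and PDGFRβ, which are best known from mesenchymal cells, pericytes and glial precursors, and the neural crest, from which neuroblastoma arises, also uses PDGFRα. USP7 and BCOR are both members of the noncanonical Polycomb complex ncPRC1.1, which keeps genes silent and is brought to CG-rich DNA by KDM2B.

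The RefSeq promoter table (GRCh38.p14) held 7 of the 10 genes, all but VEGFA, PDGFB and PDGFC. Because KDM2B binds unmethylated CG, the 250 bases before the start are shown for 4 genes that the results below turn on, with each CG in capitals (the motif reads the same on both strands).
PDGFA: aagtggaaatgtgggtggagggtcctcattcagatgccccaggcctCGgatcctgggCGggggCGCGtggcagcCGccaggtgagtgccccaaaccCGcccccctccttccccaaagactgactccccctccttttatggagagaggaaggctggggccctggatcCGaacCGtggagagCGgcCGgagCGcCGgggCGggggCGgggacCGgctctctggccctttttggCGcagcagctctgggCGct
KDR: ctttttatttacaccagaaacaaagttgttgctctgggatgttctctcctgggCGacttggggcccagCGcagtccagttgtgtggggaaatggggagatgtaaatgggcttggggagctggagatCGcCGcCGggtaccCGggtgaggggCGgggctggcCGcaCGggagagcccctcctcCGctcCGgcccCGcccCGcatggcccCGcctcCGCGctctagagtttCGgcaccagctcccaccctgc
FLT1: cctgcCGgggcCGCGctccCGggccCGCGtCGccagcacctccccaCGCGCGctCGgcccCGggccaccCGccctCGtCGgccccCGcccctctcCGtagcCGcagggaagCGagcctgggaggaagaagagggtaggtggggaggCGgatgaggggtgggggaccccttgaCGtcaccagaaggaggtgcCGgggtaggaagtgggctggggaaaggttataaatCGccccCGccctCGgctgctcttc
PDGFRA: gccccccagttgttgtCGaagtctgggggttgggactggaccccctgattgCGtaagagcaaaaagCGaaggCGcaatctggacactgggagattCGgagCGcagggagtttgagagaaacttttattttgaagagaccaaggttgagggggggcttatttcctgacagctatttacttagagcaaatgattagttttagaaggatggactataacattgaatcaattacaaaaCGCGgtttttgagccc
The stretches lie at chr7:520227-520476, minus strand (PDGFA), chr4:55125596-55125845, minus strand (KDR), chr13:28495129-28495378, minus strand (FLT1) and chr4:54229043-54229292, plus strand (PDGFRA). They held 17, 17, 25 and 8 CGs, and VEGFB, VEGFC and PDGFRB held 30, 22 and 9. The median over 35116 promoters of this length was 11, with quartiles of 3 and 23. The PDGFRA stretch thus held fewer CGs than the median promoter and the other 3 printed held more. The retinoid receptor half-site AGGTCA was on neither strand of the 7 stretches. Of all promoters only 12.1% hold it, so 7 stretches are too few to read anything from its absence.

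USP7 and BCOR each fell in the cells labelled for its loss, and each was also lower in some other groups. USP7 fell from 2912 ± 91.0 to 674 ± 32.0 normalized counts (mean ± SD, n = 3 libraries here and below, n = 2 for heterozygote groups) with USP7 deletion in neural cells (log2 -2.11 ± 0.09, adjusted p = 4.2e-18), and from 2948 ± 42.9 to 1834 ± 1.54 in neural heterozygotes. BCOR fell from 4255 ± 160.5 to 776 ± 76.2 in neural p53;BCOR cells (log2 -2.46 ± 0.09, adjusted p = 2.2e-19). In neural p53;USP7 cells BCOR stood at 2464 ± 127.2. In undifferentiated p53;USP7 cells it stood at 2346 ± 448.2, against 3605 ± 320.5 in p53-knockout cells. USP7 stood at 2765 ± 102.8 in neural p53;BCOR cells. In undifferentiated p53;BCOR cells it stood at 2406.5 ± 102.2, against 3024 ± 47.3 in p53-knockout cells. With FT671 USP7 stood at 2406 ± 19.3, against 3038.5 ± 35.7 with vehicle. The neuroblast markers were present: all 10 were listed, although TH had a median of 0.992, and their summed level lay between 0.136% and 0.623% of a library in the main experiment. It was lowest in the neural p53;USP7 libraries, at 0.136% to 0.146%. Of 12 endothelial markers 6 were listed, at a sum of at most 0.0069%, and PECAM1, CDH5, TIE1, ERG, ROBO4 and PLVAP, which define that cell type, were not. That sum was 0.00684% to 0.0069% in neural p53;USP7 cells and 0.0016% to 0.00166% in neural p53-knockout cells, 0.00608% to 0.00666% in neural p53;BCOR cells, and 0.00548% to 0.00578% with FT671 against 0.00147% to 0.00176% with vehicle. These are groups in which KDR was raised, while undifferentiated p53;BCOR cells, where KDR was near 0, held 0.00612% to 0.0068%. Of the 6 endothelial markers listed, 2 rose and 2 fell with USP7 loss in neural cells, and 3 rose and 1 fell with BCOR loss. With FT671 2 rose and 2 fell. The shares of all genes called were 63.7%, 62.3% and 65.1%. EGFL7 had the highest mean of the 6 over the main experiment, at 590 normalized counts, with libraries from 132.7 to 1187.7. EMCN had a median of 0.984 but reached 503.7 in its highest library. CLDN5 ran from 0 to 100.3, TEK and VWF each from 0 to 34.4, and ESAM from 29.1 to 74.1. Of 6 Schwann cell markers 4 were listed, with SOX10 and CDH19 not among them, and their sum was 0.00186% to 0.00191% with FT671 against 0.000289% to 0.000424% with vehicle, and at most 0.00141% in the other groups of the main experiment. The 12 pericyte and fibroblast markers summed to 0.24% to 1.14% of a library, with RGS5 between 38207 and 201821 normalized counts and DES at a median of 0. The third undifferentiated p53-knockout library held 0.16% of skeletal muscle transcripts against at most 0.00517% in any other library, and the third undifferentiated p53;USP7 library differed from the other 2 of its group in several of the genes below. A fit without both of these libraries changed 3 of the calls described with the genes. The part that these markers and libraries play in the results was not tested.

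**Figure D1:**
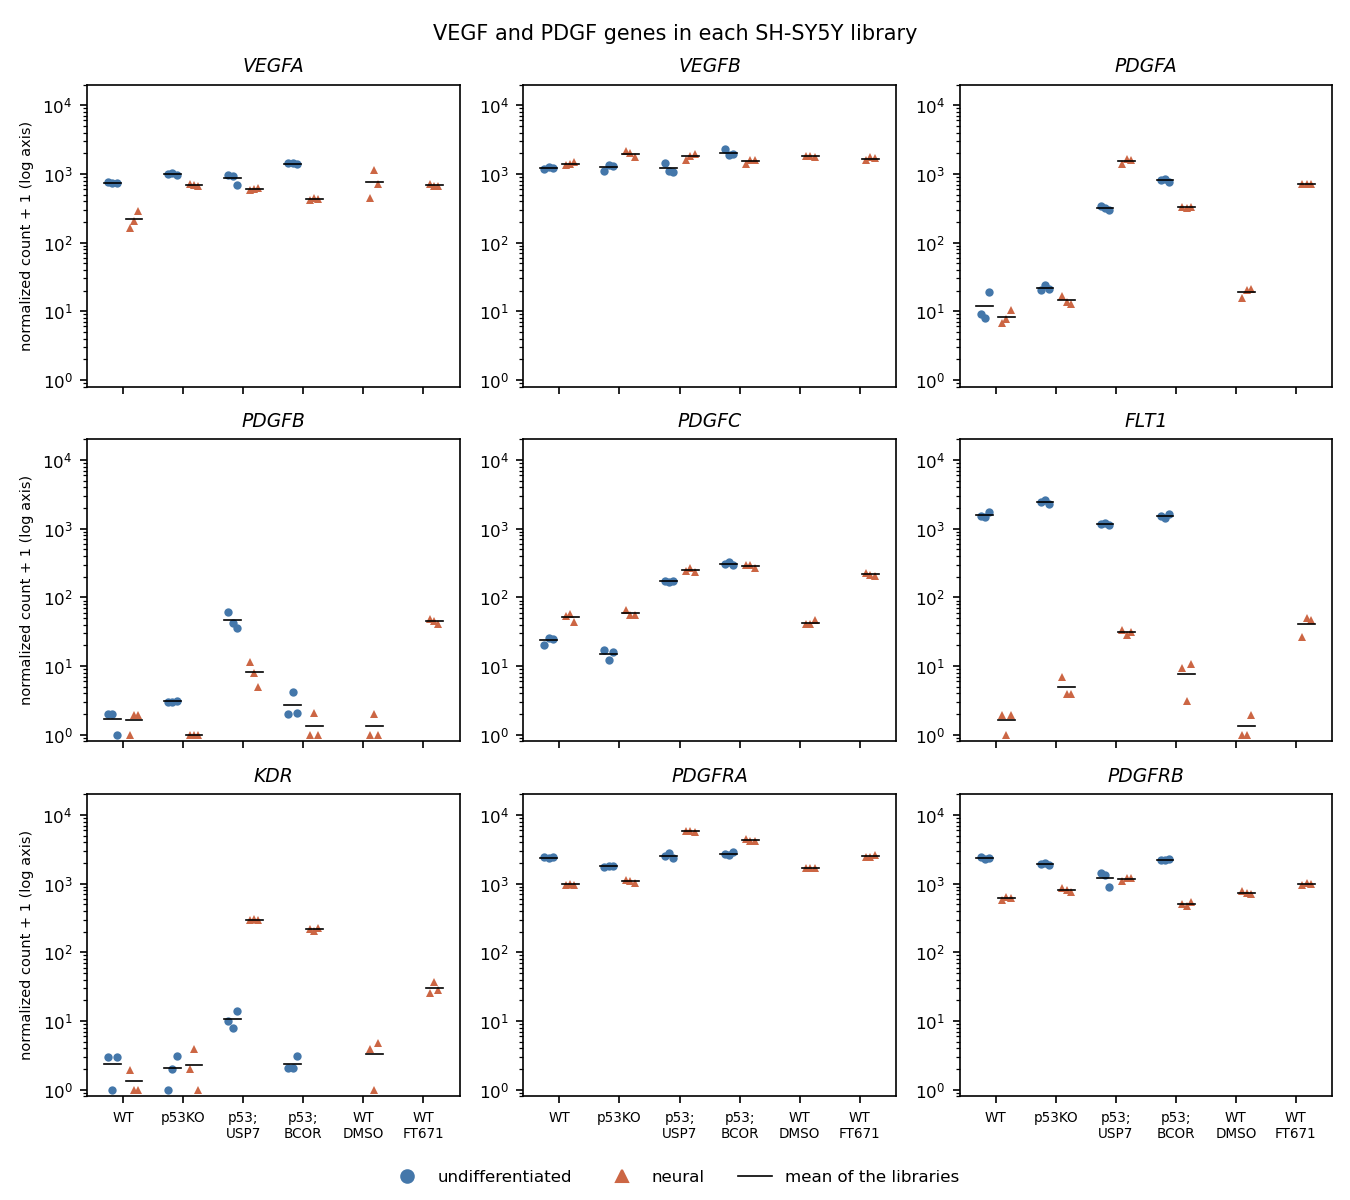
Normalized count plus 1 (log axis) of each of the 9 listed genes in each library of the main experiment, by line or treatment; circles are undifferentiated and triangles neural libraries, and bars are means of 3 libraries. PDGFA and PDGFC stand higher in both double knockouts and with FT671, FLT1 is high in undifferentiated cells, and KDR is high in the neural double knockouts.

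VEGFA, the main growth factor for blood vessels and a classical hypoxia target, fell with differentiation in wild-type cells. Its normalized counts were 758, 738 and 734 in the undifferentiated and 162.5, 202 and 285 in the neural libraries, which did not overlap (log2 -1.81 ± 0.21, adjusted p = 4.1e-08). In p53;BCOR cells it fell from 1419, 1418 and 1388 to 416, 447 and 428.5 (log2 -1.71 ± 0.21, adjusted p = 1.4e-07). The fall was less steep in p53-knockout cells (989.5 ± 34.8 to 688 ± 18.6, log2 -0.52 ± 0.21, adjusted p = 0.028, lost with single libraries left out) than in wild-type cells by a test of the difference (log2 1.29 ± 0.29, adjusted p = 0.0026), although that test missed the threshold with edgeR on 25 libraries (adjusted p = 0.058 with TMM). Neural p53-knockout cells held 3.25-fold the level of untreated neural wild-type cells (log2 1.70 ± 0.21, adjusted p = 7.3e-07), but their libraries lay within the range of the vehicle libraries given below. In p53;USP7 cells VEGFA went from 954.5, 921 and 693 to 591, 601 and 614 (log2 -0.49 ± 0.21, adjusted p = 0.039), also lost with single libraries left out. Loss of BCOR lowered VEGFA in neural cells (log2 -0.68 ± 0.21, adjusted p = 0.0064), whereas loss of USP7 gave log2 -0.19 ± 0.21, adjusted p = 0.43, against neural p53-knockout libraries of 708, 685 and 671. In undifferentiated cells BCOR loss raised VEGFA (log2 0.51 ± 0.21, adjusted p = 0.031), a call lost when any of 5 of the 6 compared libraries was left out and without both libraries that differed from their groups (adjusted p = 0.078). In bulk RNA, fewer cells that express a gene and less RNA per cell cannot be told apart. Over the 10 groups the order ran from undifferentiated p53;BCOR cells, apart from all others, to untreated neural wild-type cells, also apart, and vehicle overlapped its neighbours on both sides.

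The vehicle libraries held more VEGFA than untreated neural cells and spread widely, at 450.4, 1151 and 703. All 3 lay above the untreated libraries (log2 1.76 ± 0.21, adjusted p = 3.4e-06), but the call was lost when only these 2 groups were fitted (adjusted p = 0.06). FT671 libraries, at 712, 659 and 671, lay within the range of vehicle (log2 -0.07 ± 0.21, adjusted p = 0.78). Without the first vehicle library the FT671 value was log2 -0.40 with an adjusted p = 0.039.

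VEGFB, a ligand of FLT1 with a small part in vessel growth, varied least of the VEGF genes between groups, with means from 1199 to 2021. The undifferentiated p53;BCOR libraries were highest, at 2269, 1869 and 1926 against 1104, 1323 and 1316 in p53-knockout cells (log2 0.70 ± 0.10, adjusted p = 8.3e-07). In neural cells the order turned: p53;BCOR libraries held 1373, 1574 and 1607.5 and p53-knockout libraries 2129, 2009.8 and 1736 (log2 -0.37 ± 0.10, adjusted p = 0.0027). USP7 loss did not reach the threshold for VEGFB in either state (log2 -0.07 ± 0.10, adjusted p = 0.59 in undifferentiated cells; log2 -0.12 ± 0.10, adjusted p = 0.33 in neural cells), nor did FT671 (log2 -0.11 ± 0.10, adjusted p = 0.35), except when FT671 and vehicle were fitted alone (adjusted p = 0.016). The 4 highest groups overlapped in sequence, as did the 3 lowest, which were the undifferentiated p53-knockout, wild-type and p53;USP7 cells. Of the VEGF-like ligands outside the 10 genes, PGF (placental growth factor, an FLT1 ligand) rose with USP7 loss in neural cells from 135 ± 18.5 to 366 ± 35.7 (log2 1.44 ± 0.16, adjusted p = 9e-09) and with FT671 from 188 ± 2.62 to 370.4 ± 32.0 (log2 0.97 ± 0.16, adjusted p = 6.7e-06). In undifferentiated cells it fell with BCOR loss from 282 ± 22.2 to 79.3 ± 19 (log2 -1.84 ± 0.16, adjusted p = 7.1e-11).

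FLT1 was a transcript of undifferentiated cells. It stood at 1538, 1492.5 and 1764 normalized counts in wild-type, 2441, 2599 and 2301 in p53-knockout, 1187, 1217 and 1139 in p53;USP7 and 1507, 1435 and 1635 in p53;BCOR libraries. After differentiation it stood at 0.962, 0 and 0.957 in wild-type, 5.9, 2.92 and 2.93 in p53-knockout and 8.44, 2.15 and 9.66 in p53;BCOR libraries. No undifferentiated library overlapped a neural one, and FLT1 fell with differentiation in all 4 lines (adjusted p = 1.5e-18 in wild-type cells, where the neural libraries held at most 3 reads in all and no fold is given; log2 -9.01 ± 0.35, adjusted p = 1.7e-17 in p53-knockout, log2 -5.26 ± 0.35, adjusted p = 1.2e-12 in p53;USP7 and log2 -7.80 ± 0.35, adjusted p = 3e-16 in p53;BCOR cells). Among undifferentiated groups the p53-knockout libraries were highest and the p53;USP7 libraries lowest, both apart from their neighbours, while wild-type and p53;BCOR libraries overlapped. BCOR loss in undifferentiated cells gave log2 -0.68 ± 0.35, adjusted p = 0.084, with no overlap of libraries, and was called down in 5 alternatives, with adjusted p from 1.2e-09 (DESeq2) to 0.0035 (an added value of 5). Loss of p53 gave log2 0.62 ± 0.35, adjusted p = 0.22, also without overlap, and was called up in 5 alternatives, with adjusted p from 2e-06 (groups fitted alone) to 0.037 (edgeR with TMM).

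More FLT1 was left in neural cells after USP7 deletion or FT671. Neural p53;USP7 libraries held 32.8, 27.3 and 29.9, above every p53-knockout library (log2 2.71 ± 0.35, adjusted p = 1.9e-07), and FT671 libraries held 25.6, 48.8 and 45.4 against 0, 0 and 0.962 with vehicle (adjusted p = 2.8e-12). The p53;USP7 level exceeded that of p53;BCOR cells (log2 2.18 ± 0.35, adjusted p = 6e-06), and BCOR loss itself gave log2 0.53 ± 0.35, adjusted p = 0.19 with overlapping libraries. Without the second neural p53;BCOR library, the lowest of its group, the BCOR value was log2 1.08 with an adjusted p = 0.0025. In undifferentiated cells the direction was opposite: USP7 loss lowered FLT1 (log2 -1.05 ± 0.35, adjusted p = 0.012; adjusted p = 0.057 with limma on 25 libraries), and the test of the difference between the states gave log2 3.76 ± 0.49, adjusted p = 7.6e-07.

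KDR, the main signalling receptor for VEGF-A, was nearly silent in wild-type and p53-knockout cells. Vehicle held 2.91, 0 and 3.85 normalized counts, and no wild-type or p53-knockout library without FT671 held more than the third of these. Neural p53;USP7 libraries held 293, 304.5 and 290.1 and neural p53;BCOR libraries 218.5, 202 and 224, against 0.983, 2.92 and 0 in neural p53-knockout cells (log2 7.23 ± 0.53, adjusted p = 1.4e-12 for USP7 loss; log2 6.77 ± 0.53, adjusted p = 5.8e-12 for BCOR loss). FT671 raised KDR to 24.6, 35.8 and 27.6 (log2 3.49 ± 0.53, adjusted p = 1.6e-06); without the second vehicle library, which held no read, the value was log2 2.78. Undifferentiated p53;USP7 libraries held a low level of 8.87, 6.83 and 13.0, above the 1.04, 1.04 and 2.09 of p53;BCOR libraries (log2 2.13 ± 0.53, adjusted p = 0.00093). KDR rose with differentiation in p53;USP7 cells (log2 4.85 ± 0.53, adjusted p = 6.5e-09) and in p53;BCOR cells (log2 6.52 ± 0.53, adjusted p = 1.7e-11), and in wild-type and p53-knockout cells it did not reach the threshold (adjusted p = 0.22 and 0.87). Without the second undifferentiated wild-type library it was called down in wild-type cells (adjusted p = 0.048). The wild-type and p53-knockout comparisons each rest on a group with at most 3 reads, too few to read a lack of change from. The 4 groups with raised KDR were each apart from the next in order, and the other 6 overlapped their neighbours.

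Of the other VEGF receptors, FLT4 (VEGFR3, the receptor of lymphatic vessels) rose with FT671 from 19.4 ± 2.42 to 69.8 ± 8.76 (log2 1.80 ± 0.24, adjusted p = 1.9e-07) and with USP7 loss in neural cells from 21.2 ± 7.4 to 64.0 ± 7.85 (log2 1.60 ± 0.24, adjusted p = 1.3e-06), and BCOR loss gave log2 0.04 ± 0.24, adjusted p = 0.9. In neural USP7 heterozygotes FLT4 was lower instead, at 8.84 ± 0.192 against 16.6 ± 1.43 in their wild-type controls. The co-receptor NRP1 fell with differentiation from 1736 ± 66.7 to 162 ± 6.86 in wild-type cells of the main experiment. It stood at 1884 ± 66.3 in neural p53;USP7, 1664 ± 40.3 in neural p53;BCOR and 714 ± 35.4 in FT671 libraries. It rose with USP7 loss, BCOR loss and FT671 in neural cells (log2 3.12 ± 0.08, log2 2.94 ± 0.08 and log2 1.65 ± 0.08; the largest adjusted p was 4.2e-16). In the heterozygote experiment NRP1 stood at 350 ± 2.69 in undifferentiated and 315 ± 11.2 in neural wild-type cells. Heterozygous cells there held 359 ± 3.16 undifferentiated and 678 ± 102.7 neural. NRP2, the other neuropilin, rose with differentiation in all 4 lines, from 40.2 ± 3.55 to 474 ± 34.0 in wild-type cells, and with BCOR loss in neural cells to 1504.5 ± 79.5 (log2 1.93 ± 0.13, adjusted p = 3.8e-13). VEGFD, a ligand of FLT4, fell with FT671 from 34.3 ± 3.11 to 13.2 ± 2.96 (log2 -1.33 ± 0.34, adjusted p = 0.0011), and vehicle stood above the 14.1 ± 6.12 of untreated neural cells (log2 1.30 ± 0.34, adjusted p = 0.013). With USP7 loss in neural cells VEGFD gave log2 -0.35 ± 0.34, adjusted p = 0.38.

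PDGFA, a ligand of PDGFRα, was low in wild-type and p53-knockout cells and higher in both double knockouts and with FT671. Wild-type libraries held 8.1, 7.01 and 18.0 undifferentiated and 5.77, 6.74 and 9.57 neural normalized counts, and p53-knockout libraries 19.2, 23.2 and 20.2 and 15.7, 12.7 and 11.7. With USP7 also deleted it stood at 336, 314 and 298 in undifferentiated and 1414, 1659 and 1613 in neural libraries. With BCOR also deleted it stood at 821, 849 and 762 and 331, 319.7 and 326. No double-knockout library overlapped the p53-knockout libraries of its state. The neural p53;BCOR and undifferentiated p53;USP7 libraries overlapped each other.

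The rise with USP7 loss was 14.5-fold in undifferentiated cells (log2 3.86 ± 0.20, adjusted p = 3.8e-15) and 109.3-fold in neural cells (log2 6.77 ± 0.20, adjusted p = 3.8e-21). The 2 losses were ordered differently in the 2 states: BCOR loss gave the higher PDGFA in undifferentiated cells (log2 -1.36 ± 0.20, adjusted p = 1.9e-06 for USP7 minus BCOR loss), and USP7 loss the higher in neural cells (log2 2.25 ± 0.20, adjusted p = 1.7e-10). Differentiation raised PDGFA in p53;USP7 cells (log2 2.30 ± 0.20, adjusted p = 1.4e-10) and lowered it in p53;BCOR cells (log2 -1.31 ± 0.20, adjusted p = 3.4e-06). FT671 took PDGFA to 719, 708 and 717, against 14.6, 19.6 and 20.2 with vehicle (log2 5.24 ± 0.20, adjusted p = 1.7e-18). Vehicle was itself above untreated neural cells (log2 1.21 ± 0.20, adjusted p = 0.00023). The reference annotation places noncoding genes over PDGFA and over FLT1, and whether reads were counted by strand is not given in the sources used here.

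PDGFB, the ligand of both PDGF receptors that recruits pericytes in vessels, was raised by USP7 loss and FT671 but not detectably by BCOR loss. It was at most 2.12 normalized counts in each wild-type, p53-knockout and vehicle library, and 0 in all 3 neural p53-knockout libraries. Undifferentiated p53;USP7 libraries held 61.1, 42.0 and 34.7 and undifferentiated p53;BCOR libraries 1.04, 3.13 and 1.05 (log2 4.14 ± 0.43, adjusted p = 3.7e-09 for USP7 minus BCOR loss). In neural cells p53;USP7 libraries held 10.6, 6.83 and 3.99 and p53;BCOR libraries 0, 1.07 and 0 (adjusted p = 8.5e-06). BCOR loss gave log2 -0.24 ± 0.43, adjusted p = 0.63 in undifferentiated cells and an adjusted p = 0.5 in neural cells. FT671 libraries stood higher, at 47.2, 44.8 and 40.5 against 0, 0.978 and 0 with vehicle (adjusted p = 3.2e-11). FT671 and undifferentiated p53;USP7 libraries overlapped, and neural p53;USP7 libraries lay below both. Within p53;USP7 cells PDGFB fell with differentiation (log2 -2.57 ± 0.43, adjusted p = 9.4e-06), the opposite direction to PDGFA in these cells.

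PDGFC, a ligand secreted in a latent form and mainly an activator of PDGFRα, rose with both losses and with the drug. It stood at 16.2, 11.1 and 14.9 in undifferentiated p53-knockout, 170.4, 164 and 175 in p53;USP7 and 302, 326 and 298 in p53;BCOR libraries (log2 3.52 ± 0.13, adjusted p = 1.6e-18 with USP7 loss; log2 4.38 ± 0.13, adjusted p = 3.5e-21 with BCOR loss). In neural cells the values were 64.9, 54.5 and 54.6, 243, 267 and 232 and 299, 292 and 265, in the same order of lines (log2 2.08 ± 0.13 and log2 2.28 ± 0.13; the larger adjusted p was 5.8e-14). FT671 raised it from 39.8, 40.1 and 46.2 to 227, 213 and 204 (log2 2.33 ± 0.13, adjusted p = 5.6e-15). PDGFC rose with differentiation in wild-type cells, from 19.2, 25 and 24.1 to 51.9, 56.8 and 43.1 (log2 1.12 ± 0.13, adjusted p = 2e-08), and in p53;BCOR cells it gave log2 -0.11 ± 0.13, adjusted p = 0.47. The p53;BCOR libraries of both states and the neural p53;USP7 libraries, the 3 highest groups, overlapped in sequence. PDGFD, a latent ligand of PDGFRβ outside the 10 genes, rose with USP7 loss (log2 1.42 ± 0.11 undifferentiated, log2 1.93 ± 0.11 neural) and with FT671 (log2 1.62 ± 0.11), and by less with BCOR loss (log2 1.46 ± 0.11, adjusted p = 2.4e-12 for USP7 minus BCOR loss in neural cells).

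**Figure D2:**
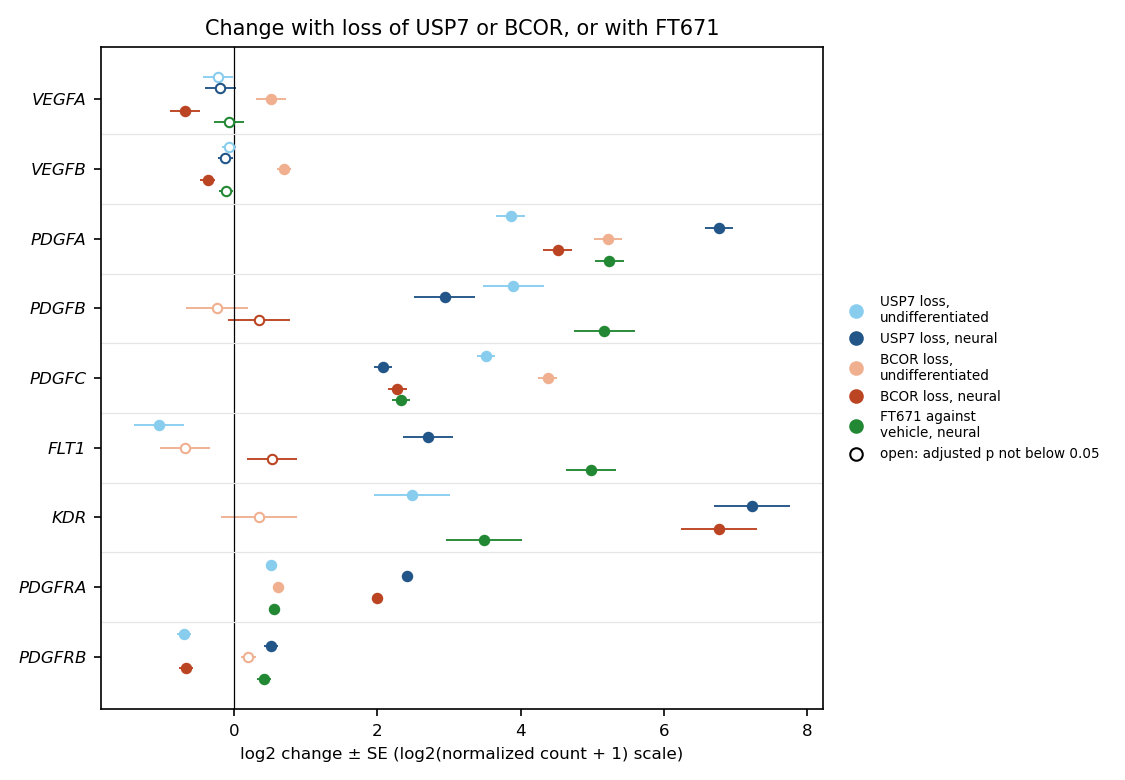
Log2 change ± SE of each listed gene with USP7 loss, BCOR loss or FT671, from limma on log2(normalized count + 1); filled points passed an adjusted p of 0.05 and open points did not. PDGFA and PDGFC lie to the right of 0 in all 5 comparisons, PDGFB in the 3 comparisons of USP7, and VEGFA and VEGFB near 0 except with BCOR loss. Where a group held at most 3 reads, as for PDGFB in neural cells, the size shown depends on the added 1.

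PDGFRA rose with differentiation in both double knockouts, where it fell in the other lines, and PDGFRB rose with USP7 loss but fell with BCOR loss in neural cells. PDGFRA, the receptor of PDGF-A and PDGF-C, fell with differentiation in wild-type cells from 2399, 2319.9 and 2429 to 962, 991 and 968 (log2 -1.29 ± 0.05, adjusted p = 7.3e-18) and in p53-knockout cells from 1752, 1789.9 and 1817 to 1121, 1103 and 1015 (log2 -0.73 ± 0.05, adjusted p = 2.6e-12). It rose instead in p53;USP7 cells, from 2562, 2756 and 2335 to 5912, 5825 and 5592 (log2 1.18 ± 0.05, adjusted p = 9e-17), and in p53;BCOR cells, from 2693, 2649.6 and 2856 to 4468.5, 4198 and 4183 (log2 0.65 ± 0.05, adjusted p = 3.6e-11). The turn was past the threshold in tests of the difference from p53-knockout cells (log2 1.91 ± 0.08, adjusted p = 2.6e-17 for USP7 and log2 1.38 ± 0.08, adjusted p = 1.1e-14 for BCOR). Neural p53;USP7 cells held 5.35-fold the p53-knockout level and neural p53;BCOR cells 3.97-fold.

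FT671 raised PDGFRA from 1684, 1686 and 1683 to 2422, 2439 and 2605 (log2 0.56 ± 0.05, adjusted p = 5.4e-10), with no overlap. Vehicle alone stood above the untreated neural libraries (log2 0.79 ± 0.05, adjusted p = 6.8e-11). Over the 10 groups the neural p53;USP7 and neural p53;BCOR cells were the highest and apart from each other and from the rest. FT671 libraries overlapped the undifferentiated wild-type and undifferentiated p53;USP7 libraries in level.

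Both PDGF receptors mark pericytes and fibroblasts, and 12 other markers of these cells were read beside them. Of that list of 12, 9 rose and 1 fell with USP7 loss in neural cells, 6 rose and 4 fell with BCOR loss, and 8 rose and 1 fell with FT671. As 63.7%, 62.3% and 65.1% of all genes were called, nothing is read from the number of these markers called. Their sum was 0.316% to 0.337% in neural p53-knockout, 0.579% to 0.688% in p53;USP7 and 0.534% to 0.605% in p53;BCOR libraries, and 0.288% to 0.344% with vehicle against 0.446% to 0.469% with FT671. RGS5 alone made up 88.6% to 96.0% of this sum. Without it, the other 11 markers summed to 0.0171% to 0.0178% in neural p53-knockout, 0.04% to 0.0429% in p53;USP7 and 0.0357% to 0.0381% in p53;BCOR libraries, and to 0.0137% to 0.0146% with vehicle against 0.0292% to 0.03% with FT671. Of the 10 neuroblast markers 7, 9 and 9 fell and 2, 1 and 1 rose in the same 3 comparisons. What part these had in the receptors' levels was not tested.

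PDGFRB, the receptor of PDGF-B and PDGF-D, fell with differentiation in wild-type cells from 2421, 2271 and 2329 to 577, 631.5 and 609.6 (log2 -1.95 ± 0.10, adjusted p = 5.1e-16), in p53-knockout cells (log2 -1.25 ± 0.10, adjusted p = 7.9e-12) and in p53;BCOR cells from 2207, 2217 and 2277 to 512, 477.5 and 543 (log2 -2.13 ± 0.10, adjusted p = 7.7e-17). In p53;USP7 cells the undifferentiated libraries held 1421, 1313 and 900.5 and the neural libraries 1107, 1200.2 and 1202, which overlapped (log2 -0.02 ± 0.10, adjusted p = 0.84). Without the third undifferentiated library this was log2 -0.22 (adjusted p = 0.0023; 0.0017 without the third p53-knockout library as well). In neural cells USP7 loss raised PDGFRB (log2 0.52 ± 0.10, adjusted p = 3.8e-05), as did FT671, from 780.5, 717 and 694.5 to 942, 1015 and 972 (log2 0.42 ± 0.10, adjusted p = 0.00053), whereas BCOR loss lowered it (log2 -0.67 ± 0.10, adjusted p = 1.1e-06). In undifferentiated cells BCOR loss gave log2 0.20 ± 0.10, adjusted p = 0.067, which passed the threshold without the 2 libraries that differed from their groups (adjusted p = 0.012), and USP7 loss gave log2 -0.70 ± 0.10, adjusted p = 7.6e-07. The direct comparison of neural p53;USP7 with p53;BCOR cells gave log2 1.19 ± 0.10, adjusted p = 2.5e-11. PDGFRL, a receptor-like gene that lacks a kinase domain, rose with both losses and FT671 in neural cells (log2 2.12 ± 0.14, log2 1.69 ± 0.14 and log2 1.25 ± 0.14; the largest adjusted p was 1.6e-08).

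**Figure D3:**
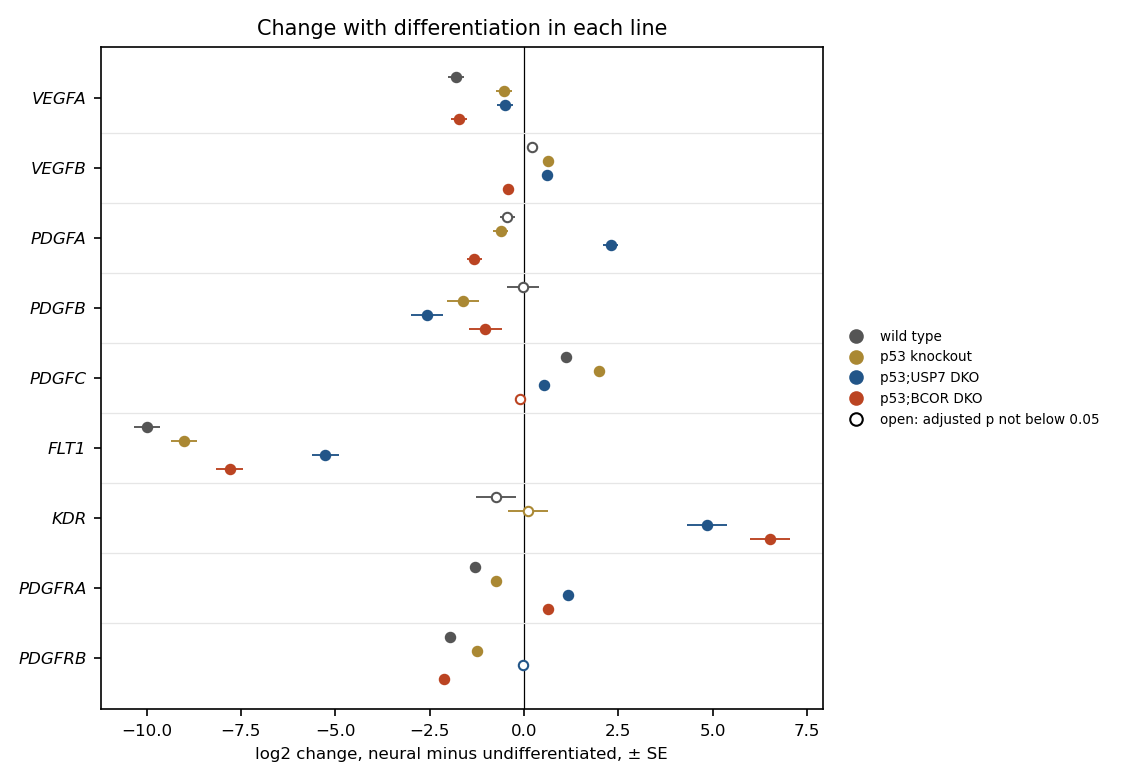
Log2 change ± SE of each listed gene between neural and undifferentiated cells in each of 4 lines, from limma; filled points passed an adjusted p of 0.05 and open points did not. PDGFRA and KDR rise in the 2 double knockouts and PDGFRA falls in the other 2 lines, while FLT1 falls in all 4. The sizes for PDGFB outside p53;USP7 cells, for KDR in wild-type and p53-knockout cells and for FLT1 in wild-type cells rest on groups with at most 3 reads and depend on the added 1.

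Counted over the 9 tested genes, differentiation called 1 up and 4 down in wild-type cells, where 65.7% of all 15351 genes tested were called. It called 2 up and 6 down in p53-knockout cells (69% of all genes), 5 up and 3 down in p53;USP7 cells (65.5%), and 2 up and 6 down in p53;BCOR cells (57.1%). The median log2 change of the 9 genes was -0.74 in wild-type and 0.54 in p53;USP7 cells, where the medians over all genes were -0.011 and 0.013. These shares of called genes were of the order of the background, so nothing is read from their number.

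Loss of p53 called 1 gene up (PDGFA) and 3 down (PDGFRA, PDGFRB and PDGFC) in undifferentiated cells, where 22.2% of all genes were called. In neural cells it called 6 up and 0 down (29.8%), among them VEGFA; VEGFB rose from 1406 ± 66.7 to 1958 ± 201 (log2 0.47 ± 0.10, adjusted p = 0.00064). Of these 10 calls, 4 held under every alternative run: VEGFA, VEGFB and PDGFRB in neural cells and PDGFRA in undifferentiated cells (log2 -0.42 ± 0.05, adjusted p = 1.1e-06). The neural control was untreated wild-type cells, and p53 loss was not tested against vehicle. Vehicle libraries overlapped neural p53-knockout libraries for VEGFA (450.4 to 1151 against 671 to 708), VEGFB (1779 to 1831 against 1736 to 2129) and PDGFRB (694.5 to 780.5 against 765 to 866). The neural calls therefore hold only against untreated cells.

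USP7 loss called 5 up and 2 down (FLT1 and PDGFRB) in undifferentiated cells (57.3% of all genes called) and 7 up and 0 down in neural cells (63.7%). BCOR loss called 5 up (VEGFA, VEGFB, PDGFRA, PDGFA and PDGFC) and 0 down in undifferentiated cells (69.4%, with FLT1 not called by limma) and 4 up (PDGFA, PDGFC, PDGFRA and KDR) and 3 down (VEGFA, VEGFB and PDGFRB) in neural cells (62.3%). FT671 called 7 up and 0 down (65.1%), and vehicle against untreated cells 4 up (VEGFA, VEGFB, PDGFRA and PDGFA) and 0 down (8.7%). The vehicle call of VEGFB (log2 0.36 ± 0.10, adjusted p = 0.025) was lost when any of 5 of the 6 libraries was left out, with adjusted p from 0.064 to 0.097, and with limma on 25 libraries. The median log2 change of the 9 genes was 2.42 with USP7 loss in neural cells, 0.53 with BCOR loss and 2.33 with FT671, against -0.014, -0.01 and -0.006 over all genes. USP7 and BCOR loss share their p53-knockout controls. KDR and PDGFB could be tested only because they were high in some of the groups compared. Their part in these counts and medians, and among the shared genes below, is therefore no separate support.

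USP7 loss and FT671 share no library, and the 7 genes that rose in neural cells were the same in both: FLT1, KDR, PDGFRA, PDGFRB, PDGFA, PDGFB and PDGFC. Over all genes, 3374 rose in both comparisons, which is 71.5% of those that rose with USP7 loss and 66.7% of those that rose with FT671. VEGFA and VEGFB passed the threshold in neither, except that fitted alone VEGFA fell with USP7 loss (adjusted p = 0.008) and VEGFB with FT671 (adjusted p = 0.016), and without the first vehicle library VEGFA fell with FT671 (adjusted p = 0.039). The sizes differed by gene: KDR reached 296 with deletion and 29.3 with the drug, PDGFA 1562 and 715, and PDGFB 7.15 and 44.2. The difference between the 2 effects was not tested here, and one was measured in cells without p53 and the other in wild-type cells.

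The direct comparison of the double knockouts called 2 genes higher with USP7 loss (PDGFB and KDR) and 5 higher with BCOR loss (VEGFA, VEGFB, PDGFA, PDGFC and PDGFRB) in undifferentiated cells, where 65.2% of all genes were called. In neural cells 7 were higher with USP7 loss and 0 with BCOR loss (60.9%), and KDR (log2 0.46 ± 0.53, adjusted p = 0.47) and PDGFC (log2 -0.20 ± 0.13, adjusted p = 0.18) did not reach the threshold. KDR, whose libraries did not overlap, was called higher with USP7 loss when the groups were fitted alone (adjusted p = 6.1e-05), with edgeR and RLE factors (0.035) and with DESeq2 (0.019). PDGFC was called higher with BCOR loss when fitted alone (adjusted p = 0.042), with TMM rescaling (0.042) and with edgeR and TMM factors (0.034). The neural calls of VEGFA (adjusted p = 0.046) and VEGFB (adjusted p = 0.036) were lost under several alternatives.

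Tests of whether a loss acted differently in the 2 states called 5 of 9 genes for p53 (18.1% of all genes), 6 for USP7 (42.1%) and 8 for BCOR (63.8%). For USP7 the effect was more positive in neural cells for FLT1, KDR, PDGFRA, PDGFRB and PDGFA (log2 2.91 ± 0.29, adjusted p = 3.3e-09) and less so for PDGFC (log2 -1.44 ± 0.18, adjusted p = 3.2e-07). For BCOR it was more positive in neural cells for FLT1, KDR and PDGFRA and less so for VEGFA, VEGFB, PDGFRB, PDGFA and PDGFC (log2 -2.10 ± 0.18, adjusted p = 1.4e-10).

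In the heterozygote experiment, differentiation of wild-type cells lowered FLT1, VEGFA, PDGFRA and PDGFRB and raised PDGFC, as in the wild-type cells of the main experiment, and VEGFB was also called up at log2 0.13 (adjusted p = 0.047), which was lost without the first undifferentiated (log2 0.07) or either neural library. All 6 were called, 2 up and 4 down, where 79.3% of 14820 genes tested were called. In USP7 heterozygotes 1 rose and 4 fell (76.4%), and the fall of PDGFRA (log2 -0.17 ± 0.06, adjusted p = 0.013) was lost without the second undifferentiated (log2 -0.12) or the first neural heterozygous library (log2 -0.09).

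FLT1 showed the largest change of the 6 genes with USP7 heterozygosity. Undifferentiated wild-type libraries held 256 and 345 normalized counts and heterozygous libraries 78.8 and 58.2, which did not overlap (log2 -2.12 ± 0.32, adjusted p = 2.8e-05). In neural cells the order was opposite, at 1.95 and 0.978 and 2.99 and 4.84 (adjusted p = 0.03, lost when either of the second neural libraries was left out, with an added value of 5 (adjusted p = 0.17) and with only these groups fitted (adjusted p = 0.35)). USP7 deletion, measured in the other experiment against p53-knockout cells, gave log2 -1.05 in undifferentiated and 2.71 in neural cells. Undifferentiated wild-type cells held 1598 ± 145.2 in that experiment and 301 ± 63.3 in this one. The sizes of the 2 effects were therefore not compared.

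PDGFRB in neural cells rose from 595 and 567 in wild-type to 919 and 1016 in heterozygous libraries (log2 0.73 ± 0.06, adjusted p = 1.1e-09), while undifferentiated libraries held 1514 and 1581 and 1558 and 1603 (log2 0.03 ± 0.06, adjusted p = 0.75). PDGFRA was lower in undifferentiated (log2 -0.22 ± 0.06, adjusted p = 0.0069) and higher in neural heterozygotes (log2 0.25 ± 0.06, adjusted p = 0.0032). The first was lost without the first undifferentiated library of either genotype, and the second without the second neural heterozygous library. PDGFC stood at 74.0 and 74.3 in neural wild-type and 77.8 and 90.9 in neural heterozygous libraries (log2 0.18 ± 0.26, adjusted p = 0.68), which did not reach the threshold. VEGFA was higher in undifferentiated heterozygotes, at 1109.9 and 1065 against 951 and 864.5 (log2 0.26 ± 0.08, adjusted p = 0.02; lost without the second wild-type or either heterozygous library), and in neural cells gave log2 0.03 ± 0.08, adjusted p = 0.83.

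Of the 6 genes, heterozygosity called 1 up and 2 down in undifferentiated cells (25.4% of all genes) and 3 up and 0 down in neural cells (21.3%). Only 1 call in each state, FLT1 and PDGFRB, held under every alternative run. The test of the difference between states called 3 (16.2%): FLT1, PDGFRA (log2 0.47 ± 0.08, adjusted p = 0.00028) and PDGFRB (log2 0.70 ± 0.08, adjusted p = 1.4e-06). Of the 7 family members outside the 10 genes, heterozygosity called 1 up and 1 down in undifferentiated cells (25.4% of all genes). In neural cells it called 4 of them up and 1 down (21.3%).

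**Figure D4:**
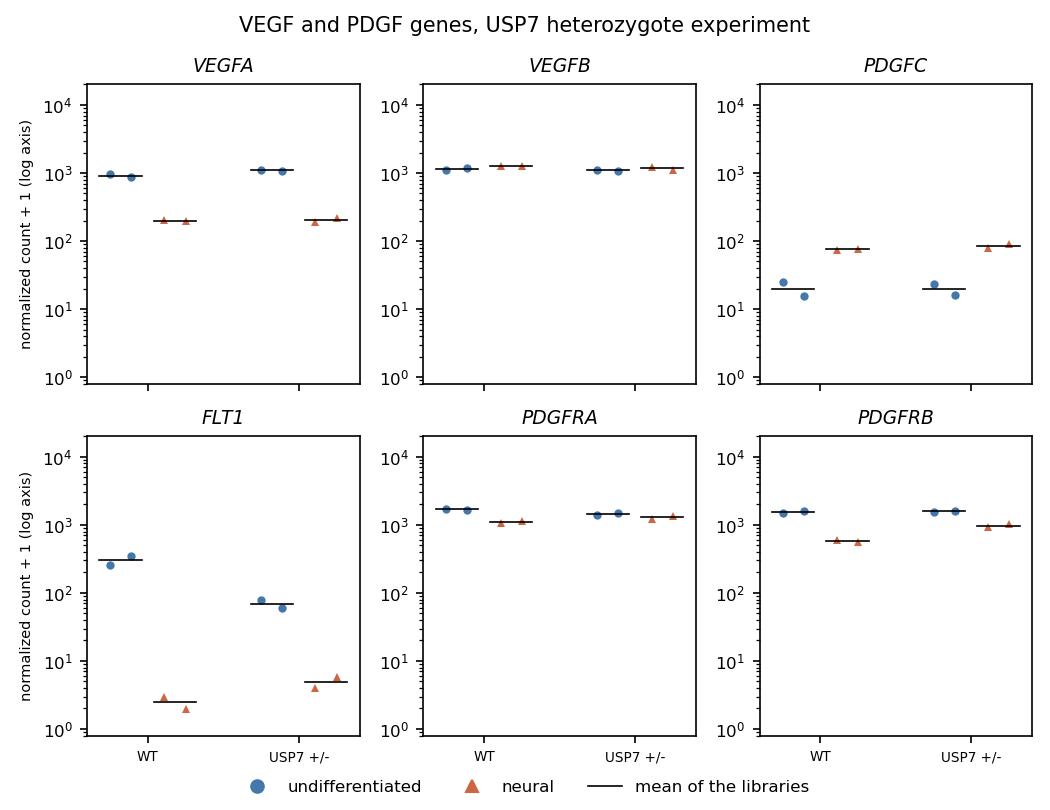
Normalized count plus 1 (log axis) of the 6 genes listed in the heterozygote experiment, in each of 8 libraries; circles are undifferentiated and triangles neural libraries, and bars are means of 2 libraries. FLT1 is lower in undifferentiated heterozygotes than in wild type, and PDGFRB is higher in neural heterozygotes.

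Proteins that cut, release or clear these ligands were read as a list of 10 genes, of which 9 were tested. With USP7 loss in neural cells 8 rose and 1 fell (median log2 1.35 against -0.014 over all genes), where 63.7% of all genes were called. PLAT, tissue plasminogen activator, which activates PDGF-C, changed by log2 2.89, and PLAU, which can activate PDGF-D, by 3.45. ADAMTS3, which processes VEGF-C, changed by 1.64 and LRP1, an endocytic receptor that binds PDGF, by 1.54. With FT671 7 rose and 0 fell (65.1% of all genes called), among them PLAT by log2 2.15 and FURIN, a proprotein convertase, by 1.76. With BCOR loss in neural cells 6 rose and 2 fell (62.3%), with PLAT at log2 2.94 and CCBE1, a cofactor of ADAMTS3, at -2.93. In wild-type differentiation 1 rose and 7 fell (65.7%).

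The 24 genes of signalling below the receptors went both ways, with a median log2 of -0.16 with USP7 loss and -0.19 with FT671 in neural cells. USP7 loss in neural cells raised 5 and lowered 13, FT671 raised 8 and lowered 13, and BCOR loss raised 10 and lowered 6. That is 18, 21 and 16 of 24 called, beside 63.7%, 65.1% and 62.3% of all genes. The kinases FYN and SRC fell with USP7 loss by log2 values of -1.92 and -1.61, and STAT3, a transcription factor below many receptors, rose by 1.37 and with FT671 by 2.12.

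A list of 14 feedback genes that MAPK signalling induces, among them the Sprouty inhibitors and dual-specificity phosphatases, was read next. BCOR loss in neural cells, with 62.3% of all genes called, raised 11 and lowered 0, among them SPRY4 by log2 3.40, DUSP5 by 3.92, SPRY2 by 1.93 and DUSP6 by 1.47 (median of the list 1.02 against -0.01 over all genes). USP7 loss (63.7% of all genes called) raised 8 and lowered 4, with DUSP6 at log2 0.73 and DUSP4 at -1.20. FT671 (65.1%) raised 7 and lowered 5, and the 4 with its smallest adjusted p were all falls: SPRY2 by log2 -2.30, SPRED2 by -1.36, ETV4 by -1.24 and DUSP6 by -0.70.

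Hypoxia genes were read beside VEGFA. Of 20, 19 were tested, and in wild-type differentiation, where VEGFA fell, 7 rose and 9 fell (65.7% of all genes called), with the oxygen sensor EGLN3 at log2 -4.65 and the glucose transporter SLC2A1 at -1.45, but EPAS1 (HIF-2α) at 4.61. USP7 loss in neural cells (63.7%) raised 11 and lowered 3, led by ADM (adrenomedullin) at log2 4.66, while VEGFA did not pass the threshold. FT671 (65.1%) raised 10 and lowered 6, with ADM at log2 4.33 and the repressor BHLHE40 at 4.90. Adjusted p was at most 1.18e-10 (CCBE1 with BCOR loss) among the genes named from these 4 lists.

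The genes whose mean log2 levels over the 10 groups were most like each of these were sought among 9995 genes that varied by at least 1 log2 unit. PDGFA was most like TLR3 (Pearson r 0.986, an RNA sensor), HRAT92 (0.985) and PLD1 (0.978, a phospholipase), and PDGFC most like WIPI1 (0.976, an autophagy protein) and SLC35D2 (0.974). KDR was most like CASP6 (0.977, a caspase) and LIF (0.956, a cytokine), and FLT1 was close to MYLK (0.981, myosin light chain kinase) and FZD4 (0.977, a WNT receptor). PDGFRB was most like KLF15 (0.972, a transcription factor) and PDGFRA most like MGAT2 (0.959, a glycosylation enzyme), while PDGFB reached 0.94 with SLC22A16 and VEGFB 0.954 with ANKRD24. VEGFA had no match above 0.855 (DNAI1). These r values describe 10 group means that share lines and libraries, the genes were picked as the highest of many, and no test was made.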

How the data were processed

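The 38 SH-SY5Y libraries were made from polyadenylated RNA. STAR, HTSeq, DESeq2 and the build hg19 are named, without versions, in the submitters' processing notes. Each deposited signal was found from the values to be a whole number of reads, within 0.01 reads, over a library's size factor (0.9217 to 1.0449) with 1 added by the authors. That 1 was taken off to give normalized counts. Another 6 columns, named for drug or vehicle in undifferentiated cells, belong to no sample here and were left out. Heterozygote columns were matched to groups only, and first and second mean their column order. The p53 transcript and some single genes are not reported here.

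The limma model (version 3.58.1, R 4.3.3, trend and robust) took log2(normalized count + 1) of genes whose mean reached 5, which were 15351 genes in the main and 14820 in the heterozygote experiment. There was 1 model per experiment and 22 comparisons in all. Tests were two-sided, p-values were adjusted over all genes by Benjamini-Hochberg, and a call is an adjusted p below 0.05. Changes are log2 ± SE, and adding 1 understates the change of low genes. Outside the results flagged for a closer look, the text gives no fold where a group held at most 3 reads in all. Members and lists were chosen with earlier results of these data known. The text names the 10 genes, their other family members, at most 4 called genes of each further list by smallest adjusted p, and the most alike genes by Pearson's r. The fit was tested on simulated data.

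Same-numbered libraries deviated together for USP7 loss in undifferentiated cells (correlations 0.151, 0.112 and 0.226) and for no other comparison, and a fit with a replicate block was an alternative. The others were an added value of 0.5 or 5, no filter, only the compared groups in a fit, TMM rescaling and each library left out. Added after seeing the data were edgeR 4.0.16, DESeq2 1.42.0 and limma on 25 libraries whose reads were accepted as recovered, and a fit without the third undifferentiated p53-knockout and p53;USP7 libraries.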

Additional observations from a re-analysis of the deposited data

Results flagged for a closer look

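Effects that differed between undifferentiated and neural cells, in limma's test of the difference, are listed here as neural minus undifferentiated. The effect of p53 loss was more positive in neural cells for VEGFA (log2 1.29, adjusted p = 0.0026), PDGFC (log2 0.86, adjusted p = 0.0012), PDGFRB (log2 0.69, adjusted p = 0.00061), PDGFRA (log2 0.56, adjusted p = 3.8e-06) and VEGFB (log2 0.43, adjusted p = 0.035). Of these 5, PDGFRA and PDGFRB held under every alternative run. The neural control was untreated wild-type cells. With vehicle, neural wild-type cells held PDGFRA at 1684.5 ± 1.22, above the 1080 ± 56.4 of neural p53-knockout cells.

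The effect of USP7 loss was more positive in neural cells for KDR (log2 4.75, adjusted p = 7.6e-06), FLT1 (log2 3.76, adjusted p = 7.6e-07), PDGFA (log2 2.91, adjusted p = 3.3e-09), PDGFRA (log2 1.91, adjusted p = 2.6e-17) and PDGFRB (log2 1.23, adjusted p = 3.8e-08) and less positive for PDGFC (log2 -1.44, adjusted p = 3.2e-07). All 6 held under every alternative run.

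The effect of BCOR loss was more positive in neural cells for KDR (log2 6.42, adjusted p = 2.4e-08), PDGFRA (log2 1.38, adjusted p = 1.1e-14) and FLT1 (log2 1.21, adjusted p = 0.035) and less positive for PDGFC (log2 -2.10, adjusted p = 1.4e-10), VEGFA (log2 -1.18, adjusted p = 0.0011), VEGFB (log2 -1.06, adjusted p = 3.4e-07), PDGFRB (log2 -0.88, adjusted p = 4.4e-06) and PDGFA (log2 -0.70, adjusted p = 0.037). The calls of FLT1 and PDGFA were lost under some alternatives and the other 6 held.

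The effect of USP7 heterozygosity was more positive in neural cells for FLT1 (log2 3.12, adjusted p = 3.1e-05), PDGFRB (log2 0.70, adjusted p = 1.4e-06) and PDGFRA (log2 0.47, adjusted p = 0.00028), and all 3 held. The KDR values and the FLT1 value of the heterozygotes rest on a group with 3 reads or fewer, so they depend on the count of 1 added before the log and are no bound on a fold. Single libraries were not tested against their groups.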

How the results depend on the processing

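Of 129 calls of these genes over the 22 comparisons, 102 held under every alternative run and none turned its sign; USP7 loss and FT671 in neural cells kept all 7 of their calls each. The number of these genes called moved by more than 1.5 times in 5 comparisons. With the reads of 25 libraries, where undifferentiated wild-type cells had 1 library, assumed to vary like the other groups, and 3 groups had 2, p53 loss in undifferentiated cells called 2 of 9 against 4: PDGFRA and FLT1 with edgeR (TMM or RLE) and DESeq2, and PDGFRA and PDGFA with limma. Its test of the difference between states called 2 (edgeR and limma) or 3 (DESeq2) against 5, and p53 loss in neural cells called 3 with DESeq2 against 6. Leaving out single libraries gave 1 to 2 calls for heterozygosity in undifferentiated cells (1 without the first heterozygous library) and 1 to 3 in neural cells (1 without the second heterozygous library), against 3 in both. Leaving out both libraries that differed from their groups, or the replicate block, which gave 7 calls for USP7 loss in undifferentiated cells as without it, moved no count by that much, and the block changed no call. TMM rescaling shifted the median of all genes by log2 -0.101 for USP7 against BCOR loss in neural cells and by 0.102 for the BCOR test of the difference.

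Over all genes, p53 loss in undifferentiated cells called 1275 (limma), 1316 (edgeR, RLE), 1358 (DESeq2) and 1475 (edgeR, TMM) on 25 libraries against 3409, and its test of the difference between states 1424, 1444, 1491 and 1498 against 2777. Fitted alone, vehicle against untreated cells called 3696 against 1336 (and 834 without the first untreated or 802 without the third vehicle library), USP7 loss in undifferentiated cells 4831 against 8798 and USP7 against BCOR loss there 6519 against 10009. Heterozygosity called 2449 against 3768 without the first undifferentiated wild-type library, and, without the first neural heterozygous library, 1947 against 3151 in neural cells and 1538 against 2400 for the difference between states. The cause was not tested. Count models on all 30 libraries and on the heterozygote experiment were not run, as a separate check of units did not accept reads as recovered for 8 columns. The values of these columns were also whole within 0.01 reads. Depth limits genes at a few reads, such as KDR and PDGFB outside the groups where they were raised.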
